A study of Mus musculus with 6 samples.

Results

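Genes of the motile cilium, the beating cilium that ependymal cells carry on the walls of the brain ventricles, were followed in mouse cortex after stroke. The set was chosen by gene symbol and holds dynein arm, radial spoke, central pair and tektin genes, the factors that assemble them, the transcription factors that switch them on, and further genes linked to cilia. Of 47 listed symbols, 45 had a row among the 24421 gene symbols of the count table, and Dnah12 and Ak9, with none under those symbols, were not analysed here. Bulk RNA sequencing covered 6 cortex samples of C57BL/6 mice, each taken after MCAO, the blockage of the middle cerebral artery that models ischaemic stroke. In 3 samples the mice had received green fluorescent protein (GFP), the control, and in 3 NeuroD1, a basic helix-loop-helix factor that promotes neuronal differentiation. The comparison asks what NeuroD1 does to gene expression in the injured cortex. The sources used here give no vector, time after stroke, age or sex, and do not say whether the replicates came from different mice. The p-values therefore describe only how far these samples scatter, part of which may be technical.

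Library totals ran from 7753101 to 9698795 counts with GFP and from 10843273 to 13440244 with NeuroD1, so sequencing was deeper throughout the NeuroD1 group. Neurod1 itself stood at 6.48, 3.87 and 5.43 CPM (library-scaled read counts, after TMM normalisation) in GFP replicates 1, 2 and 3 and at 48.5, 14.6 and 38.4 CPM in NeuroD1 replicates 1, 2 and 3. Over all 14852 genes tested, edgeR's quasi-likelihood test with Benjamini-Hochberg adjustment called 0 at an adjusted p of 0.05 (smallest 0.136), with 3564 genes at an unadjusted p under 0.05. limma-voom called 0 genes as well, and DESeq2 1374. No cilium gene passed the edgeR test in any direction, so the differences below are given as values and not as calls.

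A motile cilium is a bundle of microtubule doublets around a central pair. Outer and inner dynein arms, motor complexes built in the cytoplasm with dedicated assembly factors, slide the doublets against each other, while radial spokes and the central pair regulate the beat and tektins lie within the doublet wall. In multiciliated cells Mcidas acts early, Foxj1 and the Rfx factors then turn on the axonemal genes, and in the adult forebrain most motile cilia belong to the ependyma that lines the ventricles, where their beat moves cerebrospinal fluid. Rfx factors bind a palindrome called the X-box, one arm of which reads GTTGCC.

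Promoter sequences of the set are shown because they carry that letter pattern far more often than promoters at large. RefSeq windows (GRCm38.p6, from 250 bases before to 50 after a transcript start) were at hand for 39 of the 45 genes, in 43 windows. The 6 genes without a window were Dnaaf1, Rsph1, Rsph4a, Foxj1, Lrrc6 and Armc4. GTTGCC, read on both strands, lay in 24 of the 43 windows (55.8%), against 12.5% of all 32851 windows, and in the last 100 bases before the start it lay in 15 (34.9%) against 4.67%. At least 2 copies were present in 11.6% of the member windows and 1.02% of all. The longer X-box consensus, which can contain GTTGCC, was found in 3 member windows (6.98%, against 0.962% of all), those of 1700012B09Rik, Zmynd10 and Tekt1. The forkhead core TGTTTAC was found in 2 (4.65%, against 3.65%), those of Mlf1 and Ak7. The 150 bases before the start are printed 5′ to 3′ for 6 of the genes that hold GTTGCC there and whose NeuroD1 libraries all lay below the GFP libraries. Lrguk (match at -10 from the start) and Mlf1 (match at -105) also met both conditions and are not printed. Rfx3 is printed as well, which holds none there (its window has 1 after the start) and whose mean was higher with NeuroD1. Capitals mark GTTGCC or its reverse complement GGCAAC.
Dnaic2, chr11:114727269-114727418 (plus strand): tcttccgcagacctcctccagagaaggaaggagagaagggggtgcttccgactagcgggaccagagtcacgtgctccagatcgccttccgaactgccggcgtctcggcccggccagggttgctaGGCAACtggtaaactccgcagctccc
Enkur, chr2:21205366-21205515 (minus strand): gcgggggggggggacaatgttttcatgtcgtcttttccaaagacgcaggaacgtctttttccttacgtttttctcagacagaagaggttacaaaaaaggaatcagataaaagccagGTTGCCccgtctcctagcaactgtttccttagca
Hydin, chr8:110266827-110266976 (plus strand): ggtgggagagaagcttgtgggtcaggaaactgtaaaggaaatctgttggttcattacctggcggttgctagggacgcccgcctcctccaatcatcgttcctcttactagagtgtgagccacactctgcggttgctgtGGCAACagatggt
Pifo, chr3:106001498-106001647 (minus strand): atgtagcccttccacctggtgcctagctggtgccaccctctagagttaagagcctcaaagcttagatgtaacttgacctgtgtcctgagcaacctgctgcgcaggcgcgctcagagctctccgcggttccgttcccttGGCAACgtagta
Rfx2, chr17:56831009-56831158 (minus strand): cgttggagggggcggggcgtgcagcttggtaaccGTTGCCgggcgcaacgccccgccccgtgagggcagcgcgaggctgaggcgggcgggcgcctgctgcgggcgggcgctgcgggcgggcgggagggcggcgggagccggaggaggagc
Tekt1, chr11:72361883-72362032 (minus strand): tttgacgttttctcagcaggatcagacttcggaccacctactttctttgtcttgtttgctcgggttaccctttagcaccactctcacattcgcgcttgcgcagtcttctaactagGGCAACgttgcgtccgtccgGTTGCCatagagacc
Rfx3, chr19:28011167-28011316 (minus strand): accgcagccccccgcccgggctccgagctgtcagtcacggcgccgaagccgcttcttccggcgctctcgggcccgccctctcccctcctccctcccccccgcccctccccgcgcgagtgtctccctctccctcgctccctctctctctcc
In these stretches the pattern lay close to the start in Dnaic2, Enkur, Hydin, Pifo and Tekt1, where Tekt1 held it on each strand, and farther upstream in Rfx2. The GENCODE gene models of Tekt1 and Pifo begin upstream of the RefSeq starts used here, so their stretches lie inside those models. Differences between groups were of like size with and without the pattern. The 22 tested genes with GTTGCC in a window had a median log2 fold change of -1.29 and the 16 with a window but no match -1.23. In 10 of 23 genes with the pattern, and 8 of 16 without, all NeuroD1 libraries lay below all GFP libraries, against a background of 15.3% of all tested genes.

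Levels of motile cilium genes were lower in 2 of the 3 NeuroD1 libraries and close to the GFP range in the third. The summed level of the 45 genes was 255.1, 343.5 and 330.2 CPM in GFP replicates 1, 2 and 3, and 121.1, 123.1 and 279.5 CPM in NeuroD1 replicates 1, 2 and 3. NeuroD1 replicates 1 and 2 lay far below every GFP library, and NeuroD1 replicate 3 lay between the lowest and the highest of them. Without Foxj1 and Rfx3, the members with most counts, NeuroD1 replicates 1, 2 and 3 stood at 27.1%, 33.3% and 77.4% of the GFP mean, and GFP replicate 1, the lowest control, at 77.1%. In bulk tissue fewer ciliated cells and less RNA per cell cannot be told apart.

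Counted gene by gene, the mean was lower with NeuroD1 in 42 of the 45 members and higher in 3, Rfx3, Lrrc6 and Mcidas. The filter on low counts was passed by 43, all but Dnaaf1 and Mcidas, of which 41 had a log2 fold change below 0 (background 48.3%). Their median log2 fold change was -1.19 (2.28-fold lower), beside 0.02 over all tested genes. An unadjusted edgeR p under 0.05 was reached by 18 of the 43, all lower (background 11.5% lower), and by 0 in the higher direction (background 12.5%). In 20 of 45 every NeuroD1 library lay below every GFP library (background 15.3%) and in 0 above (background 14.2%). DESeq2 called 9 members lower (background 3.93%), namely Dnaic1, Ccdc114, Spag17, Tekt1, Rfx2, Ccdc40, Enkur, Zmynd10 and Mlf1, and 0 higher (background 5.07%), while edgeR and limma-voom called 0 (background 0%) and edgeR with the replicate number as a block called 3 lower (background 1.76%). With 1 library left out, DESeq2 called 9 members without GFP replicate 1, 0 without either of the other GFP libraries, 1 without NeuroD1 replicate 1, 4 without NeuroD1 replicate 2 and 29 without NeuroD1 replicate 3. Its calls over all genes moved with the same removals. Lower were 828, 35 and 71 genes without GFP replicates 1, 2 and 3, and 73, 494 and 1042 without NeuroD1 replicates 1, 2 and 3.

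**Figure D1:**
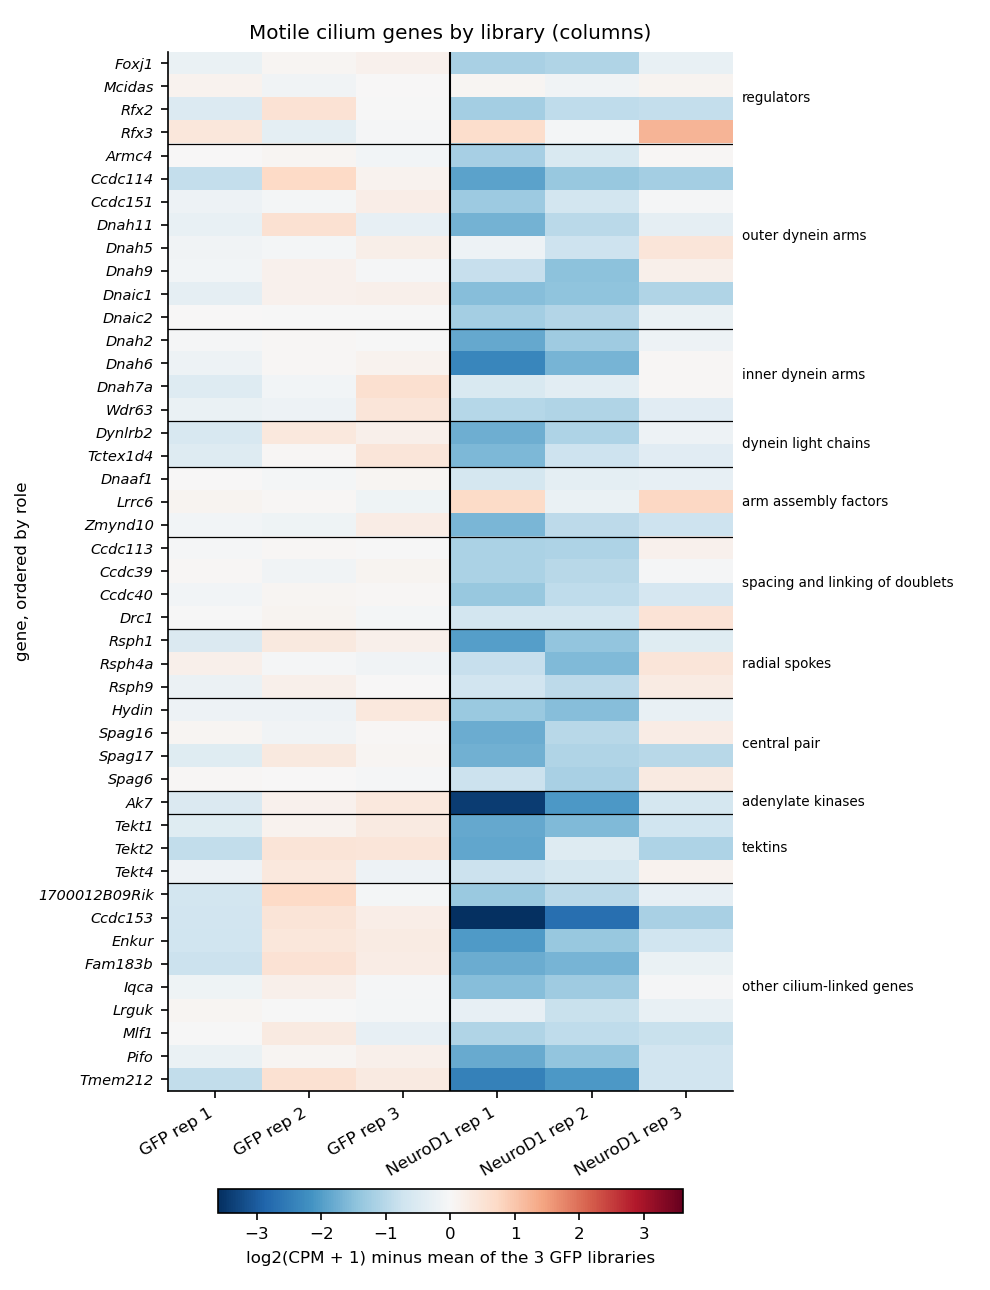
Heat map of the 45 motile cilium genes (listed down the side, by role) in 6 libraries (columns), coloured by log2(CPM + 1) minus the mean of the 3 GFP libraries, blue for lower. NeuroD1 replicates 1 and 2 are blue for nearly all genes, while NeuroD1 replicate 3 is pale for many. Rfx3 and Lrrc6 run the other way in NeuroD1 replicates 1 and 3, but not in NeuroD1 replicate 2.

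The regulators did not share a direction. Foxj1, the forkhead factor that commits cells to motile cilia (chr11:116330704-116335399, minus strand, protein coding), stood at 38.8, 48.4 and 50.4 CPM with GFP and 19.7, 21.2 and 37.9 CPM with NeuroD1. Every NeuroD1 library was below every GFP library, the third by a small margin, and the log2 fold change was -0.80 (SE 0.28, edgeR adjusted p = 0.159). Per kilobase of annotated exon Foxj1 had the highest level of the set, at 13.7 CPM per kb over all 6 libraries. Rfx2, one of the Rfx factors of ciliated cells (chr17:56775897-56831013), stood at 7.19, 15.8 and 10.4 CPM with GFP and 3.99, 5.23 and 5.39 CPM with NeuroD1. It was low in all 3 NeuroD1 libraries, with no recovery in the third, and its log2 fold change was -1.19 (SE 0.35, edgeR adjusted p = 0.14).

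Rfx3, a related factor that other cells of the brain also express, had 31.4, 17.9 and 22.5 CPM with GFP and 36.4, 22.1 and 56.0 CPM with NeuroD1. The groups overlapped, and the log2 fold change was 0.67 (SE 0.36, edgeR adjusted p = 0.278), or 0.29 without NeuroD1 replicate 3. Mcidas, which starts multiciliated cell formation, gave 2, 0 and 1 counts with GFP and 2, 0 and 2 with NeuroD1, too few to compare.

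Outer dynein arm genes were lower on average in 8 of 8 cases, 4 of them without overlap (background 15.3%), and the clearest were an intermediate chain and a docking factor. Dnaic1, an intermediate chain of the outer arm motor (chr4:41569775-41638158), had 5.97, 8.68 and 9.02 CPM with GFP and 2.03, 2.23 and 3.14 CPM with NeuroD1. The groups were well apart, with a log2 fold change of -1.67 (SE 0.34), a 3.19-fold difference, and the smallest unadjusted edgeR p of the set (0.000936, adjusted 0.136). Enho, a gene on the opposite strand, overlaps Dnaic1. Ccdc114, part of the complex that docks the outer arm on the doublet (chr7:45924072-45948963), had 6.78, 22.3 and 14.5 CPM with GFP and 2.71, 4.45 and 5.03 CPM with NeuroD1. Its GFP libraries were widely spread and all above the NeuroD1 libraries, with a log2 fold change of -1.83 (SE 0.46, edgeR adjusted p = 0.136).

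Dnaic2, the partner intermediate chain, was very even in the controls, at 9.11, 8.95 and 9.02 CPM, and uneven with NeuroD1, at 3.31, 3.87 and 7.45 CPM (log2 fold change -0.89, SE 0.35, edgeR adjusted p = 0.185). Dnah9, an outer arm heavy chain, the motor itself, had 7.80, 9.62 and 8.15 CPM with GFP and 4.29, 2.42 and 9.69 CPM with NeuroD1. Here NeuroD1 replicate 3 was the highest of all 6 libraries, so the groups overlapped (log2 fold change -0.64, SE 0.47, edgeR adjusted p = 0.414). The heavy chain gene Dnah5 had the smallest difference of any tested member, -0.12 (SE 0.41), with means of 4.81 ± 0.74 CPM for GFP and 4.44 ± 2.22 CPM for NeuroD1 (SD, n = 3 each), and its sign turned without GFP replicate 3 (0.016) or without NeuroD1 replicate 2 (0.18). Without NeuroD1 replicate 3, the log2 fold change was -1.32 for Dnah9 and -1.88 for Dnaic1.

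The inner arms were also uneven among NeuroD1 libraries. Dnah6, an inner arm heavy chain, had 61, 55 and 72 counts with GFP and 8, 16 and 82 with NeuroD1, that is 6.18, 7.35 and 7.82 CPM against 0.603, 1.55 and 7.36 CPM. NeuroD1 replicates 1 and 2 were low and NeuroD1 replicate 3 lay within the GFP range, so that the log2 fold change was -1.17 (SE 0.74, edgeR adjusted p = 0.346) with all libraries and -2.74 without replicate 3. Dnah2, another inner arm chain, had 7.80, 8.28 and 7.93 CPM with GFP and 1.51, 2.71 and 7.001 CPM with NeuroD1, without overlap (log2 fold change -1.101, SE 0.51, edgeR adjusted p = 0.229). Dnah7a had means of 1.92 ± 1.104 CPM and 1.32 ± 0.51 CPM (SD, n = 3 each). Reads of Dnah7a and its near copies may have been split, since the handling of multiply mapped reads is not given.

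Factors that build the arms before they enter the cilium were split. Zmynd10, a cytoplasmic dynein assembly factor, had 3.95, 3.74 and 5.32 CPM with GFP and 0.678, 1.74 and 2.15 CPM with NeuroD1, without overlap (log2 fold change -1.52, SE 0.47, edgeR adjusted p = 0.141). Lrrc6, which works with Zmynd10, had 2.23, 2.14 and 1.74 CPM with GFP and 3.84, 1.55 and 4.04 CPM with NeuroD1, with overlap (log2 fold change 0.63, SE 0.45, edgeR adjusted p = 0.397). Zmynd10 and Lrrc6 therefore had opposite signs, with or without NeuroD1 replicate 3 (-1.85 and 0.42 without it). Dnaaf1, an assembly factor below the count filter, gave 9, 6 and 9 counts with GFP and 3, 5 and 6 counts in the deeper NeuroD1 libraries. The light chain genes Dynlrb2 and Tctex1d4 had log2 fold changes of -1.32 (SE 0.68) and -1.52 (SE 0.77), and both overlapped between groups.

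**Figure D2:**
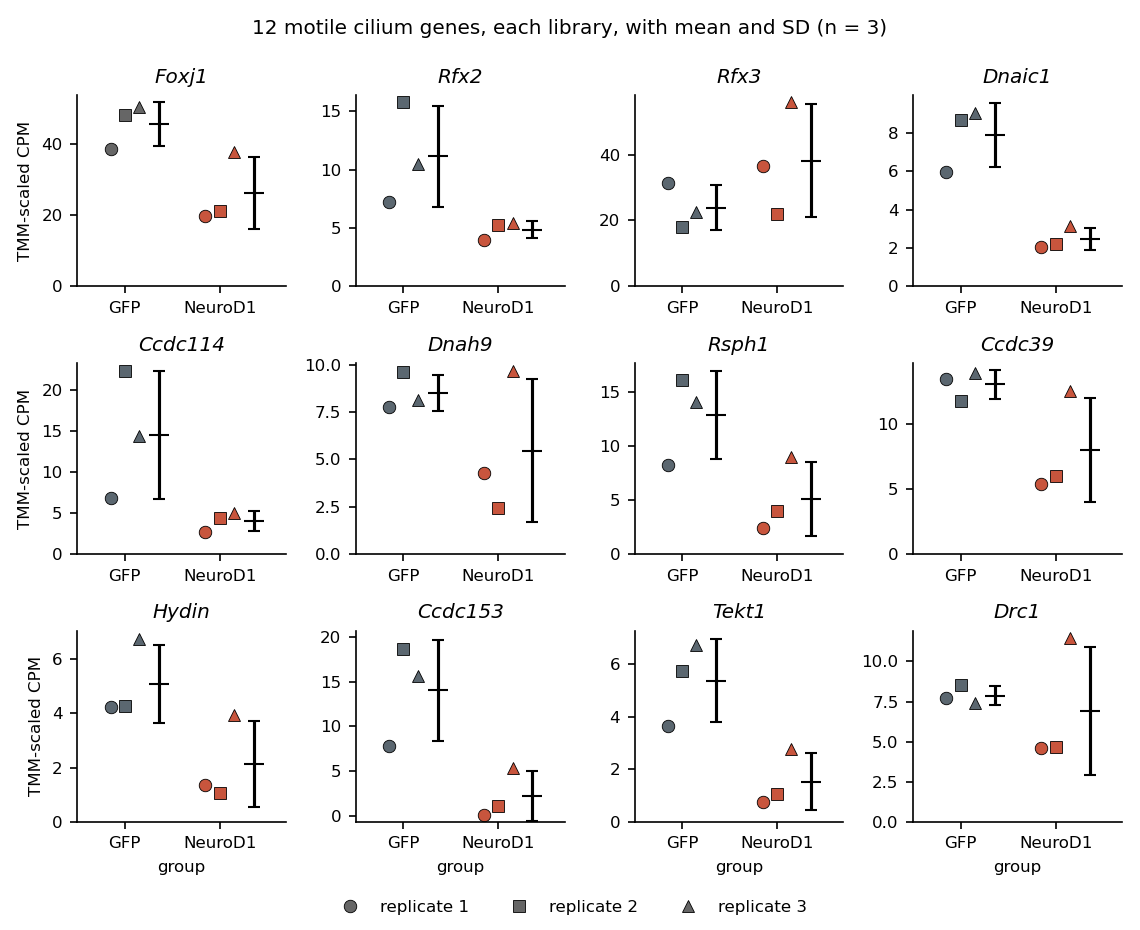
TMM-scaled CPM of 12 motile cilium genes by group, one symbol shape per replicate, with mean and SD (n = 3) beside the points. NeuroD1 replicate 3 (triangle) lies above the other NeuroD1 libraries in all 12 panels. It is inside the GFP range for Rsph1 and Ccdc39 and above it for Dnah9, Drc1 and Rfx3. Foxj1, Rfx2, Dnaic1, Ccdc114, Hydin, Ccdc153 and Tekt1 are below GFP in all 3 NeuroD1 libraries.

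Ccdc39 and Ccdc40 encode the paired ruler that sets the axonemal repeat. Ccdc40 had 7.19, 8.28 and 8.04 CPM with GFP and 2.41, 3.68 and 4.76 CPM with NeuroD1, without overlap (log2 fold change -1.12, SE 0.33, edgeR adjusted p = 0.14). Its partner Ccdc39 had 13.5, 11.8 and 13.9 CPM with GFP and 5.42, 6.00 and 12.6 CPM with NeuroD1, where replicate 3 fell inside the GFP range (log2 fold change -0.71, SE 0.35, edgeR adjusted p = 0.254). Drc1, a subunit of the complex that links neighbouring doublets, had 7.70, 8.55 and 7.39 CPM with GFP and 4.59, 4.64 and 11.5 CPM with NeuroD1. Its NeuroD1 libraries lay on either side of the controls, the log2 fold change was -0.19 (SE 0.40, edgeR adjusted p = 0.79), and the sign turned without NeuroD1 replicate 1 (0.043) or NeuroD1 replicate 2 (0.030).

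Among radial spoke genes Rsph1, a spoke head protein, had 8.30, 16.2 and 14.1 CPM with GFP and 2.41, 3.97 and 8.98 CPM with NeuroD1 (log2 fold change -1.33, SE 0.49, edgeR adjusted p = 0.168). NeuroD1 replicate 3 exceeded GFP replicate 1, so the groups overlapped. The spoke head genes Rsph4a and Rsph9 were highest of all libraries in NeuroD1 replicate 3, at 8.53 and 8.89 CPM, and had smaller log2 fold changes of -0.50 (SE 0.58) and -0.41 (SE 0.41).

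Central pair genes held a wide range. Spag17, a central pair protein needed for beating, had 2.23, 4.54 and 3.59 CPM with GFP and 0.301, 1.06 and 1.17 CPM with NeuroD1, low in all 3 (log2 fold change -2.03, SE 0.55, edgeR adjusted p = 0.138). Hydin, a very large central pair protein whose loss causes hydrocephalus, had 4.25, 4.27 and 6.74 CPM with GFP and 1.36, 1.06 and 3.95 CPM with NeuroD1, without overlap (log2 fold change -1.26, SE 0.53, edgeR adjusted p = 0.196). Spag6 had 5.47, 5.34 and 5.22 CPM with GFP and 2.71, 1.84 and 7.001 CPM with NeuroD1, so its groups overlapped (log2 fold change -0.47, SE 0.49, edgeR adjusted p = 0.557). Its near copy Spag6l has a row of its own, and reads of the pair may have been divided between them.

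Tektins, rod-like proteins of the doublet, were lower on average in 3 of 3 cases. Tekt1 had 3.65, 5.74 and 6.74 CPM with GFP and 0.753, 1.06 and 2.78 CPM with NeuroD1, without overlap (log2 fold change -1.81, SE 0.53, edgeR adjusted p = 0.14). Tekt2 differed from most of the set in that NeuroD1 replicate 2, not 3, was the highest of its group (0.452, 2.81 and 1.44 CPM, against 1.82, 6.28 and 6.08 CPM with GFP). Tekt4 had means of 1.79 ± 0.65 and 1.12 ± 0.75 CPM (SD, n = 3 each).

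By log2 fold change the members farthest below 0 were Ccdc153, Pifo, Tmem212, Spag17 (above) and Ak7. Ccdc153, a marker of ependymal cells (chr9:44240676-44247306), had 77, 140 and 144 counts with GFP and 1, 12 and 60 with NeuroD1, or 7.80, 18.7 and 15.6 CPM against 0.0753, 1.161 and 5.39 CPM. All 3 NeuroD1 libraries lay below the controls, over a wide range, and the log2 fold change was -2.68 (SE 0.92, edgeR adjusted p = 0.155). Tmem212, a membrane protein gene of ependymal cells, had 21, 56 and 58 counts with GFP and 1, 4 and 29 with NeuroD1 (log2 fold change -2.37, SE 0.94, edgeR adjusted p = 0.181). Ak7, which interconverts adenine nucleotides in cilia, had 68, 88 and 127 counts with GFP and 1, 18 and 71 with NeuroD1 (log2 fold change -1.99, SE 0.91, edgeR adjusted p = 0.223).

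In Ccdc153, Tmem212 and Ak7, NeuroD1 replicate 1 held 1 count each although it was the deepest library, which leaves their fitted folds imprecise. Enkur, an adaptor protein of cilia and sperm, had 3.95, 9.75 and 8.91 CPM with GFP and 0.979, 2.13 and 3.95 CPM with NeuroD1, where NeuroD1 replicate 3 nearly equalled GFP replicate 1 (log2 fold change -1.68, SE 0.55, edgeR adjusted p = 0.146). Pifo, a ciliary gene whose promoter is printed above, gave 19, 20 and 27 counts with GFP and 0, 3 and 13 with NeuroD1, without overlap (log2 fold change -2.37, SE 0.86, edgeR adjusted p = 0.166).

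**Figure D3:**
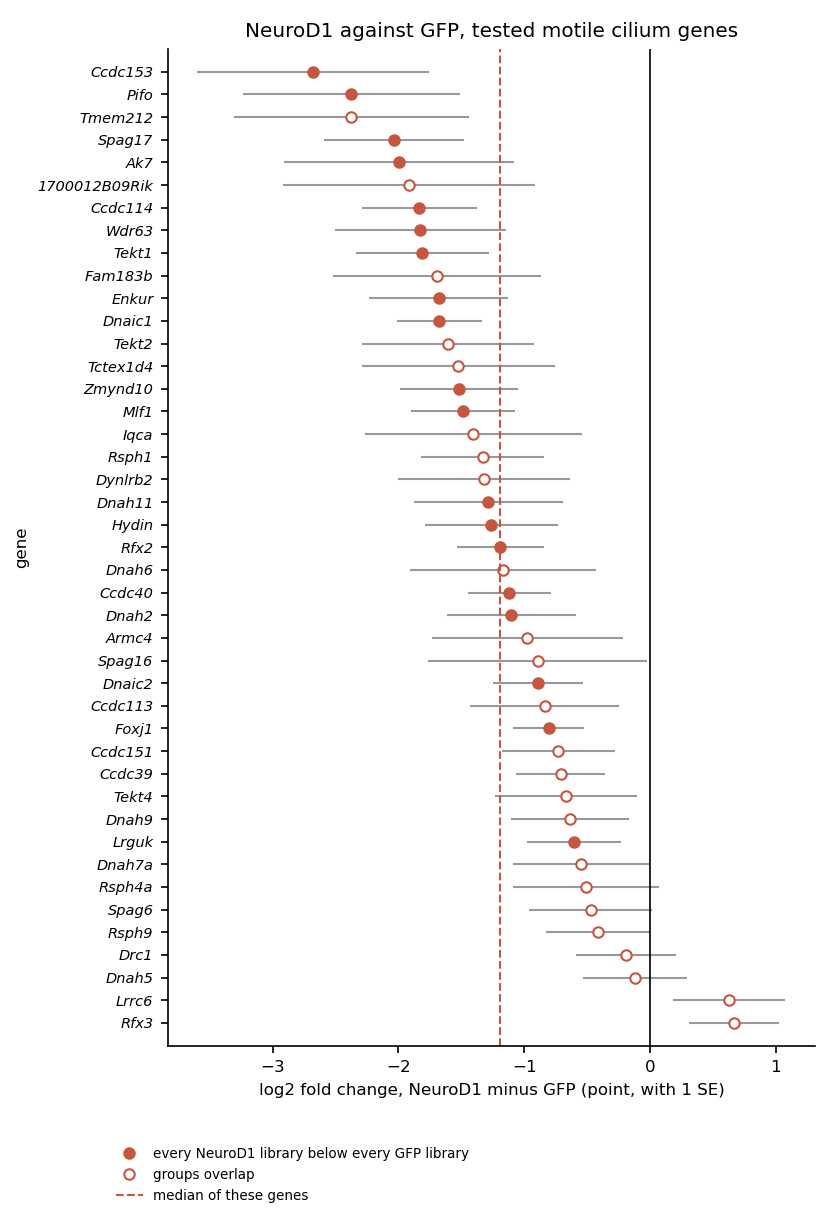
Log2 fold change of the 43 tested genes, NeuroD1 minus GFP, with 1 SE. Filled points mark genes whose NeuroD1 libraries all lie below all GFP libraries, and the dashed line is the median of -1.19. Only Rfx3 and Lrrc6 lie above 0.

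The NeuroD1 libraries differed among themselves more than the GFP libraries did. NeuroD1 replicate 3 was the highest library of its group in 44 of 45 members, with Tekt2 as the exception, and NeuroD1 replicate 1 was the lowest in 34. The coefficient of variation was larger in the NeuroD1 group than in the GFP group for 39 of 43 tested members, and its median was 69.1% against 21.1%. Over all tested genes it was larger for 62.7%, with medians of 24.7% and 19.0%. Of the 45 members NeuroD1 replicate 3 lay above every GFP library in 10, within the GFP range in 14 and below it in 21, while NeuroD1 replicate 1 lay below in 42 and NeuroD1 replicate 2 in 41. Those above were Dnah5, Dnah9, Rsph4a, Rsph9, Spag6, Spag16, Ccdc113, Drc1, Rfx3 and Lrrc6, which include motor, spoke and central pair genes.

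Neurod1 itself did not follow that order, since NeuroD1 replicate 2 had the lowest Neurod1 level of its group and NeuroD1 replicate 1 the highest. The choice of NeuroD1 replicate 3 as the library to leave out was made after its values were seen. Without it the median log2 fold change was -1.88 (0 of 43 members past the threshold by edgeR, smallest adjusted p = 0.0514), 37 of 43 members had an unadjusted edgeR p under 0.05 and lower levels (background 13.6%), and 40 of 45 did not overlap (background 24.2%). By DESeq2, 29 of 44 members were then lower at an adjusted p under 0.05 (background 6.71%). Without NeuroD1 replicate 1, the lowest library, the median was -0.83.

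Other motile cilium genes, from a list of 73 of which 63 had a row, were also read. Of 54 tested, 46 had a log2 fold change below 0 (background 48.3%), and the median was -0.82. At an unadjusted edgeR p under 0.05, 25 were lower (background 11.5%) and 1 higher (background 12.5%), and 0 passed after adjustment. DESeq2 called 9 lower (background 3.93%). In 23 of 63 all NeuroD1 libraries lay below all GFP libraries (background 15.3%) and in 2 above (background 14.2%). Dnal1, a dynein light chain gene, had a log2 fold change of 0.13 (-0.11 without NeuroD1 replicate 3), and Tctn1, a gene of the ciliary transition zone, had a log2 fold change of -0.74.

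Genes of intraflagellar transport and of the primary cilium, the non-beating cilium that neurons and astrocytes also carry, had smaller differences. All 35 were tested, with a median log2 fold change of -0.13 and a range from -0.96 to 0.57. At an unadjusted edgeR p under 0.05, 3 were lower (8.57%, background 11.5%) and 0 higher (background 12.5%), and 0 passed after adjustment. Without overlap, 7 of 35 were lower (background 15.3%) and 1 higher (background 14.2%). Their summed level was 1094 to 1182 CPM with GFP and 929.1 to 1172 CPM with NeuroD1. Kif3a and Kifap3, motor subunits that carry cargo into the cilium, had log2 fold changes of -0.27 and 0.43. No test of this list against the motile set was made.

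**Figure D4:**
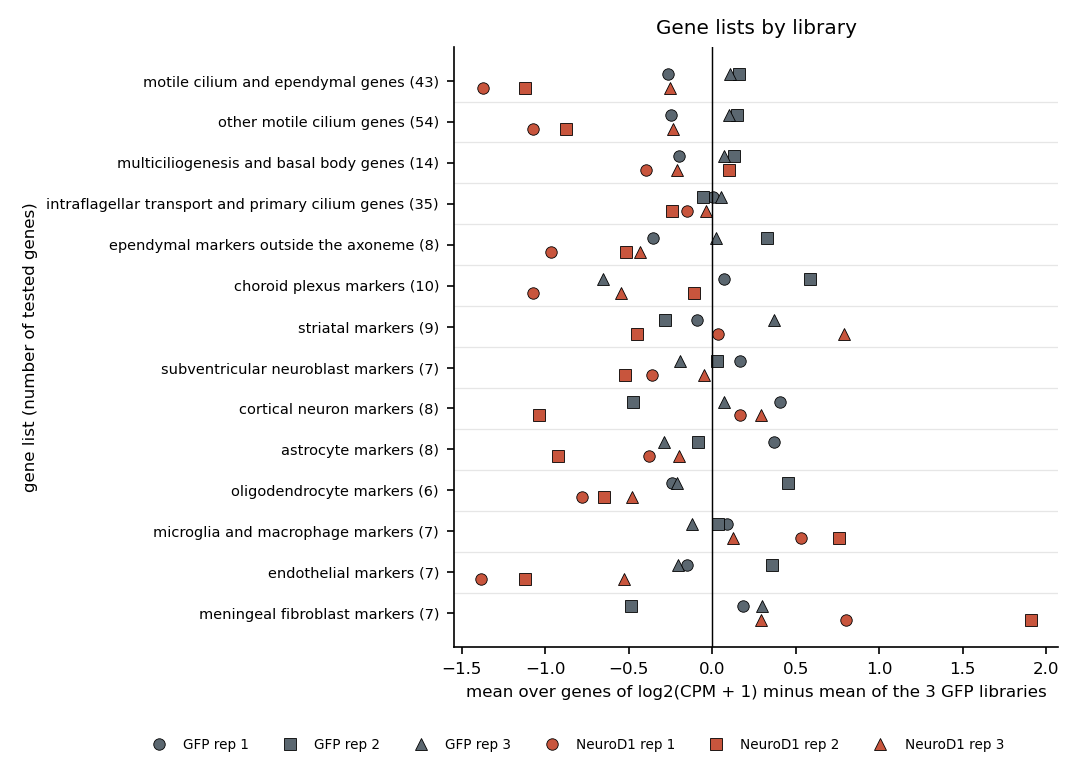
Mean level of each gene list per library, as log2(CPM + 1) minus the mean of the 3 GFP libraries, over the number of tested genes in brackets. For motile cilium genes NeuroD1 replicates 1 and 2 lie at -1.38 and -1.12, and NeuroD1 replicate 3 at -0.25 beside GFP replicate 1 at -0.26.

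Cell markers outside the axoneme were read in the same libraries, since a cortex sample can hold more or less of the ventricular wall. Of 9 ependymal markers outside the axoneme 3 lay lower in every NeuroD1 library (background 15.3%), namely Rarres2, Mia and Hdc. DESeq2 also called these 3 lower (background 3.93%). The 8 tested had a median log2 fold change of -0.87 (-0.45 without NeuroD1 replicate 1). Their summed level, mostly the widely expressed Vim, was 1012 to 1217 CPM with GFP and 1116 to 1290 CPM with NeuroD1. Tppp3, a tubulin-binding gene of ependymal cells, had a log2 fold change of -0.66. Of the 8 tested markers 6 had a log2 fold change below 0 (background 48.3%) and 2 above, up to 0.78. Vim stayed above 0 with any 1 library left out (0.11 to 0.24). Choroid plexus, the secretory tissue of the ventricles, varied most in Ttr, its transthyretin gene, at 115.5, 784.3 and 27.5 CPM with GFP and 2.71, 64.3 and 23.1 CPM with NeuroD1. All 16 choroid plexus markers had a row, 13 of 16 means were lower with NeuroD1, and 3 of 16 were lower without overlap (background 15.3%). Of the 10 tested, 4 were lower at an unadjusted edgeR p under 0.05 (background 11.5%) and DESeq2 called 0. Their median log2 fold change was -0.32, but -1.29 by DESeq2 and -1.25 with no count filter. Removing GFP replicate 2 gave -0.18 and removing GFP replicate 3 gave -1.49, while removal of NeuroD1 replicates 1, 2 and 3 in turn gave -0.77, -1.26 and -1.50. Their summed level was 225.1 to 1116 CPM with GFP and 225.3 to 311.0 CPM with NeuroD1, and of Slc4a5 and Kcne2, both under the count filter, 1 was at 0 in GFP replicate 3 and 1 in NeuroD1 replicate 1. GFP replicate 3, with the lowest choroid plexus sum, had the second highest sum of motile cilium genes. GFP replicate 2 had the highest sum of both lists, at 1116 and 343.5 CPM. NeuroD1 replicate 1 was the lowest library for 8 of 16 choroid plexus markers and 34 of 45 motile cilium genes.

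Striatal markers, from tissue beside the lateral ventricle, had a median log2 fold change of 0.06. Of these, 0 of 10 were apart between groups (background 15.3% lower and 14.2% higher). They summed to 153.3 to 210.3 CPM with GFP and 107.4 to 343.2 CPM with NeuroD1. NeuroD1 replicate 3 was the highest library for 6 of these 10 genes. Subventricular neuroblast markers had a median of -0.52 (2 of 7 lower without overlap) and cortical neuron markers -0.13 (1 of 8, background 15.3% for both). Endothelial markers summed to 392.0 to 582.4 CPM with GFP and to 174.1, 229.5 and 310.3 CPM in NeuroD1 replicates 1, 2 and 3, the same order within the NeuroD1 group as the motile cilium genes. Oligodendrocyte markers had that order too, at 6677, 8036 and 9183 CPM in NeuroD1 replicates 1, 2 and 3. The endothelial median was -1.05, with 5 of 7 lower without overlap (background 15.3%). At an unadjusted edgeR p under 0.05, 5 of 7 were lower (71.4%, against 41.9% of tested motile cilium members, background 11.5%). DESeq2 called 5 of 7 lower (background 3.93%). Astrocyte markers had a median of -0.43 (3 of 8 lower without overlap) and oligodendrocyte markers -0.54 (4 of 6, background 15.3% for both). Microglia and macrophage markers had 0.42 (2 of 7 higher without overlap) and meningeal fibroblast markers 1.34 (2 of 7 higher, background 14.2% for both). No defining marker of neurons, glia or endothelium was at 0 in any library. The part of any of these cell types or tissues in the motile cilium result was not tested.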

How the data were processed

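Raw read counts per gene symbol were deposited; per the file headers, featureCounts made them from mm10 gene models. The submitters' processing notes list HISAT2 2.0.1, DESeq2 1.16.1 and GRCm38 and give no role for any. Neither the strand setting nor the treatment of multiply mapped reads is stated in the sources used here. Of the 45 members 19 overlap an annotated gene on the opposite strand (GENCODE M21, GRCm38), by whole gene spans with introns included. Where exons overlap and counting ignored strand, reads of the 2 genes could not be told apart. All 6 columns were matched to samples by the sample description.

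NeuroD1 was compared with GFP by edgeR 4.0.16 in R 4.3.3 (quasi-likelihood F-test, TMM scaling, treatment only). filterByExpr (minimum count 10, minimum total 15) kept 14852 genes. P-values were Benjamini-Hochberg adjusted over all of them, with a threshold of 0.05. Standard errors came from the F statistic. Relative levels used log2(CPM + 1), which understates differences of low genes. Within groups, the chi-square per gene between library pairs ran from 28.9 to 107.8, so none was treated as a duplicate. CPM per kb used the union of annotated exons.

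Alternatives were DESeq2 1.42.0, limma-voom (limma 3.58.1), other scalings and filters, a replicate block and each library left out. DESeq2 with a library left out, and counts without the ribosomal RNA precursor Rn45s, were added after the data were seen. Genes given with full values were the regulators, up to 3 members per role by mean CPM, the members with the smallest p in each direction, and the most abundant genes of other lists. Other members are named where a count or a sequence turns on them. The members and lists were chosen with earlier results of these data known, so no list received a test of its own.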

Additional observations from a re-analysis of the deposited data

How the results depend on the processing

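Members kept a negative median under every alternative run, from -1.88 (without NeuroD1 replicate 3) to -0.83 (without NeuroD1 replicate 1), and 39 to 42 of them had a log2 fold change below 0 by edgeR when 1 library was left out. The number of members past the threshold and lower was 0 by edgeR with any 1 library left out, 9 by DESeq2 (0 without GFP replicate 2 or 3, 1, 4 and 29 without NeuroD1 replicates 1, 2 and 3) and 3 with a replicate block. The number at an unadjusted p under 0.05 and lower was 28 with the block and 10 to 37 with 1 library left out (by DESeq2 11 with either of GFP replicates 2 and 3 removed, and 35 with NeuroD1 replicate 3 removed, when the DESeq2 median was -1.87). The share over all genes was taken only for edgeR with all libraries (11.5%) and without NeuroD1 replicate 3 (13.6%). The counts of the block, of DESeq2 and of the other left-out libraries have no background and cannot be read as results about the members. Over all genes DESeq2 called 774 higher and 600 lower (leaving out GFP replicates 1 to 3 in turn, 1218, 127 and 153 higher and 828, 35 and 71 lower; leaving out NeuroD1 replicates 1 to 3, 183, 509 and 1338 higher and 73, 494 and 1042 lower), the block 218 and 261, and edgeR with 1 library left out 0 to 1 and 0. Other motile cilium genes past the threshold, all lower, were 9 by DESeq2 (background 3.93%) and 6 with the block (background 1.76%). Their median ran from -1.20 to -0.63 over left-out libraries. Ependymal markers past the threshold, all lower, were 3 by DESeq2 (background 3.93%) and 1 with the block (background 1.76%). The ependymal median ran from -1.10 to -0.45 over left-out libraries. The choroid plexus median was -1.29 by DESeq2 and -1.25 with no filter, which bring in low-count genes, and ran from -1.50 to -0.18. The striatal median, 0.06, turned sign with upper quartile scaling (-0.025), DESeq2 (-0.0071), no filter (-0.0040) and the stricter filter (-0.056), and ran from -0.42 to 0.37. Among the tested members and the other genes named by the rule or in the text, those whose sign turned with a left-out library were Dnah5 (-0.55 to 0.18), Dnah7a (-0.89 to 0.020), Drc1 (-0.76 to 0.043), Dnal1 (-0.11 to 0.46), Dcx (-0.56 to 0.068), Ppp1r1b (-0.57 to 0.030), Slc1a2 (-0.40 to 0.42) and Slc17a7 (-0.41 to 0.56, and -0.14 with limma-voom and -0.13 with the block). The cause of these changes was not tested. Same-numbered samples had correlated deviations of 0.585, 0.401 and 0.0285 over genes for replicates 1, 2 and 3. Differently numbered samples had -0.513 to 0.142. The labels give only a shared number, so whether samples were paired is not known, and the block is no evidence of it. Most members had under 10 CPM, which limits the precision of single folds.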

Other observations

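Genes that act before the axoneme is built were also read. Of 19 genes of multiciliogenesis and the basal body, 14 were tested, with a median log2 fold change of -0.34. At an unadjusted edgeR p under 0.05, 4 were lower (background 11.5%) and 1 higher (background 12.5%), and 0 passed edgeR after adjustment. DESeq2 called 0 of 15 lower (background 3.93%) and 1 higher (background 5.07%). Without overlap, 4 of 19 were lower (background 15.3%) and 2 higher (background 14.2%). The member of this list with the largest positive value was Plk4, the kinase that starts centriole duplication in dividing cells, at 4.56, 3.87 and 3.26 CPM with GFP and 12.9, 17.3 and 8.89 CPM with NeuroD1 (log2 fold change 1.74). Trp73, a transcription factor of multiciliated cells, had 1.62, 5.48 and 2.28 CPM with GFP and 0.452, 0.290 and 1.71 CPM with NeuroD1 (log2 fold change -1.91), so its groups overlapped. Plk4 and Trp73 were chosen after their values were seen. Gmnc, which acts upstream of Mcidas, was below the count filter. E2f4 and Tfdp1, cell cycle factors that Mcidas engages, had log2 fold changes of 0.42 and 0.52.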
